A study of Mus musculus with 12 samples.

Results

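The genes described here are 35 genes of ribosome biogenesis and of the MYC programme in mouse eosinophils. They were taken from a table of 54532 genes by symbol. That lookup used no measured value, but the list itself was chosen with earlier results of these data known. Of the 35, 34 passed the filter on low counts and were tested among 14547 genes. Wdr74, a large-subunit assembly factor, had at most 0.70 CPM (counts per 1000000 counts of the library) in any library and was not tested.

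The cells were splenic eosinophils sorted as 4get-reporter-positive cells with high side scatter from IL-5tg_4get/C57BL/6 mice. In these animals an interleukin-5 transgene drives eosinophilia, and the 4get allele is a GFP reporter of the Il4 gene. Both alleles are shared by all groups. Cells were cultured for 4 h with rat IgG2a isotype control at 5 µg/mL (isotype), with rat anti-Siglec-F antibody of clone E50-2440 at 5 µg/mL (antibody), with recombinant murine IL-33 at 10 ng/mL (IL-33), or with antibody and IL-33 together (both stimuli). Siglec-F is a sialic acid receptor with inhibitory motifs on the eosinophil surface, and IL-33 is an alarmin cytokine. Each group had 3 libraries. The labels do not say whether these came from separate mice, nor whether the IL-33 wells also received isotype, so p-values measure only the spread among libraries, part of which may be technical.

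Library totals ran from 11686603 to 17137988 counts. Libraries 2 and 3 of the both-stimuli group stood apart from the other 10. Genes with at least 1 count numbered 15555 and 29990 in these libraries, against 19138 to 24485 elsewhere. The 86 cytosolic ribosomal protein genes took 3.54% and 4.12% of counts there, against 1.73% to 2.79% elsewhere. Mitochondrial genes took 2.86% of counts in IL-33 library 2 and 2.56% in both-stimuli library 2, against 1.10% to 1.77% elsewhere. IL-33 library 2 also had the most genes detected outside the both-stimuli group, 24485. All 11 eosinophil markers were detected. Siglecf ran from 534 to 1066 CPM and Ccr3, the eotaxin receptor, from 1282 to 1908 CPM. The granule genes Epx and Prg2 varied widely within groups, Prg2 from 895 to 5343 CPM among the both-stimuli libraries alone.

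Ribosomes are assembled in the nucleolus. RNA polymerase I transcribes the precursor rRNA, box C/D and box H/ACA ribonucleoproteins guide its methylation and pseudouridylation, and separate sets of factors build the small and the large subunit. MYC binds E-box motifs with its partner MAX and is known to drive many of these genes during cell growth, together with enzymes of nucleotide and polyamine synthesis. Mature eosinophils are non-dividing cells.

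RefSeq promoter windows (GRCm38.p6, the build of mm10), each from 250 bases before to 50 after a gene start, were found for 27 of the 35 members. The canonical E-box CACGTG, which reads the same on both strands, was in 7 of their 30 windows (23.3%), against 7.15% of all 32851 windows and 9.88% of the 12467 windows of tested genes. The 6 genes with a match were Mybbp1a, Grwd1, Nme1, Nop2, Pes1 and Wdr43, and Nme1 holds it in overlapping windows. The first 4 windows below are printed because their genes were called higher with both stimuli and hold the motif, shown in capitals. The other members called with both stimuli do not add to these. The windows of Ddx21, Nhp2, Nop16, Mrto4, Nop58 and Rrp9 lack the motif, and Rrp12 and Rrs1 had no window. The Ddx21 window, which lacks these letters, is printed because Ddx21 was the only member still called without both-stimuli libraries 2 and 3. A match describes the sequence and does not show binding.
Mybbp1a, chr11:72441077-72441376, plus strand: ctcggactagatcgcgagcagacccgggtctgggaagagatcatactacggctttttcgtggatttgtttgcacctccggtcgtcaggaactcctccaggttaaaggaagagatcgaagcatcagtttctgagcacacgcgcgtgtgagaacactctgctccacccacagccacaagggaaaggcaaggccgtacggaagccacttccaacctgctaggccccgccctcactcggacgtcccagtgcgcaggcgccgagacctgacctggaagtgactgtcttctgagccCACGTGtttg
Grwd1, chr7:45830740-45831039, minus strand: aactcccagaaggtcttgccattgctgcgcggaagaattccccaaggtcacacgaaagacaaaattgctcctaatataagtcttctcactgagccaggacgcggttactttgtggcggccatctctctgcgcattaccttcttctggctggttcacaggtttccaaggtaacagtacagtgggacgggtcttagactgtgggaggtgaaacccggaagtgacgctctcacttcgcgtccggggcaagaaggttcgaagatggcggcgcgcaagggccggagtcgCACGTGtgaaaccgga
Nme1, chr11:93968223-93968522, minus strand: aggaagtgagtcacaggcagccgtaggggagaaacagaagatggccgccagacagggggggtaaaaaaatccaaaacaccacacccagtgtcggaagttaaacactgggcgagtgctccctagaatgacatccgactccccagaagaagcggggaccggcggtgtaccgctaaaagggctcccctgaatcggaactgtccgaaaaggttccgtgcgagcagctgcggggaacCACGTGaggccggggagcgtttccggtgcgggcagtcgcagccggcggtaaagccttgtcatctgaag
Nop2, chr6:125131633-125131932, plus strand: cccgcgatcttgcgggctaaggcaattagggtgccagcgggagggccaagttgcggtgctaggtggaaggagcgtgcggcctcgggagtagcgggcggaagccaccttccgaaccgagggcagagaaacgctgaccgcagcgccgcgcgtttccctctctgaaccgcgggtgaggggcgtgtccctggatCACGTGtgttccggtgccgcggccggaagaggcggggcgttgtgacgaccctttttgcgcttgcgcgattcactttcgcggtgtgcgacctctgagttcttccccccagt
Ddx21, chr10:62602249-62602548, minus strand: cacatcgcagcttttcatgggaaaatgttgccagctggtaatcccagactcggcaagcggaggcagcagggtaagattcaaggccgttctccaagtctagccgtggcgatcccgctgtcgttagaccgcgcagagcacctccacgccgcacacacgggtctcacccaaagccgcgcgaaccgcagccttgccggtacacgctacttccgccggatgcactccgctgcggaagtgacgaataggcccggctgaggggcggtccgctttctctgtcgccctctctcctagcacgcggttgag
In these windows the motif lay close to the gene start: its offset was 40 bases for Mybbp1a and 34 for Grwd1, both downstream, and -18 for Nme1 and -60 for Nop2, both upstream.

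With IL-33 alone, 4 members rose against isotype and none fell: the nucleolar RNA helicase Ddx21, the ribonucleoprotein chaperone Nolc1, the polymerase I regulator Mybbp1a, and Rrp12, a late small-subunit factor. Their share of 4 in 34 stands beside 1.46% of all genes called higher and 0.749% called lower (edgeR quasi-likelihood test, adjusted p under 0.05). Of the 34, 28 had a positive log2 fold change, and the median was 0.33 against -0.01 over all genes. In 14 members every IL-33 library was above every isotype library, beside 11.0% of all genes.

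With both stimuli together, 12 members rose against isotype and none fell. They were Ddx21, Mybbp1a and Rrp12 again, the methyltransferase-complex core protein Nop58, the H/ACA protein Nhp2, the processome protein Rrp9, the nucleotide kinase Nme1, and 5 large-subunit factors, Nop2, Nop16, Mrto4, Grwd1 and Rrs1. Over all genes, 5.47% were called higher and 4.41% lower. A positive fold change was seen in 33 of the 34 members, with a median of 0.56 against -0.05 over all genes, and 17 members had groups that did not overlap, beside 11.9% of all genes. Without both-stimuli libraries 2 and 3 the group holds only library 1. The median was then 0.44, against -0.04 over all genes. A call lost in that fit does not by itself show a smaller change.

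**Figure D1:**
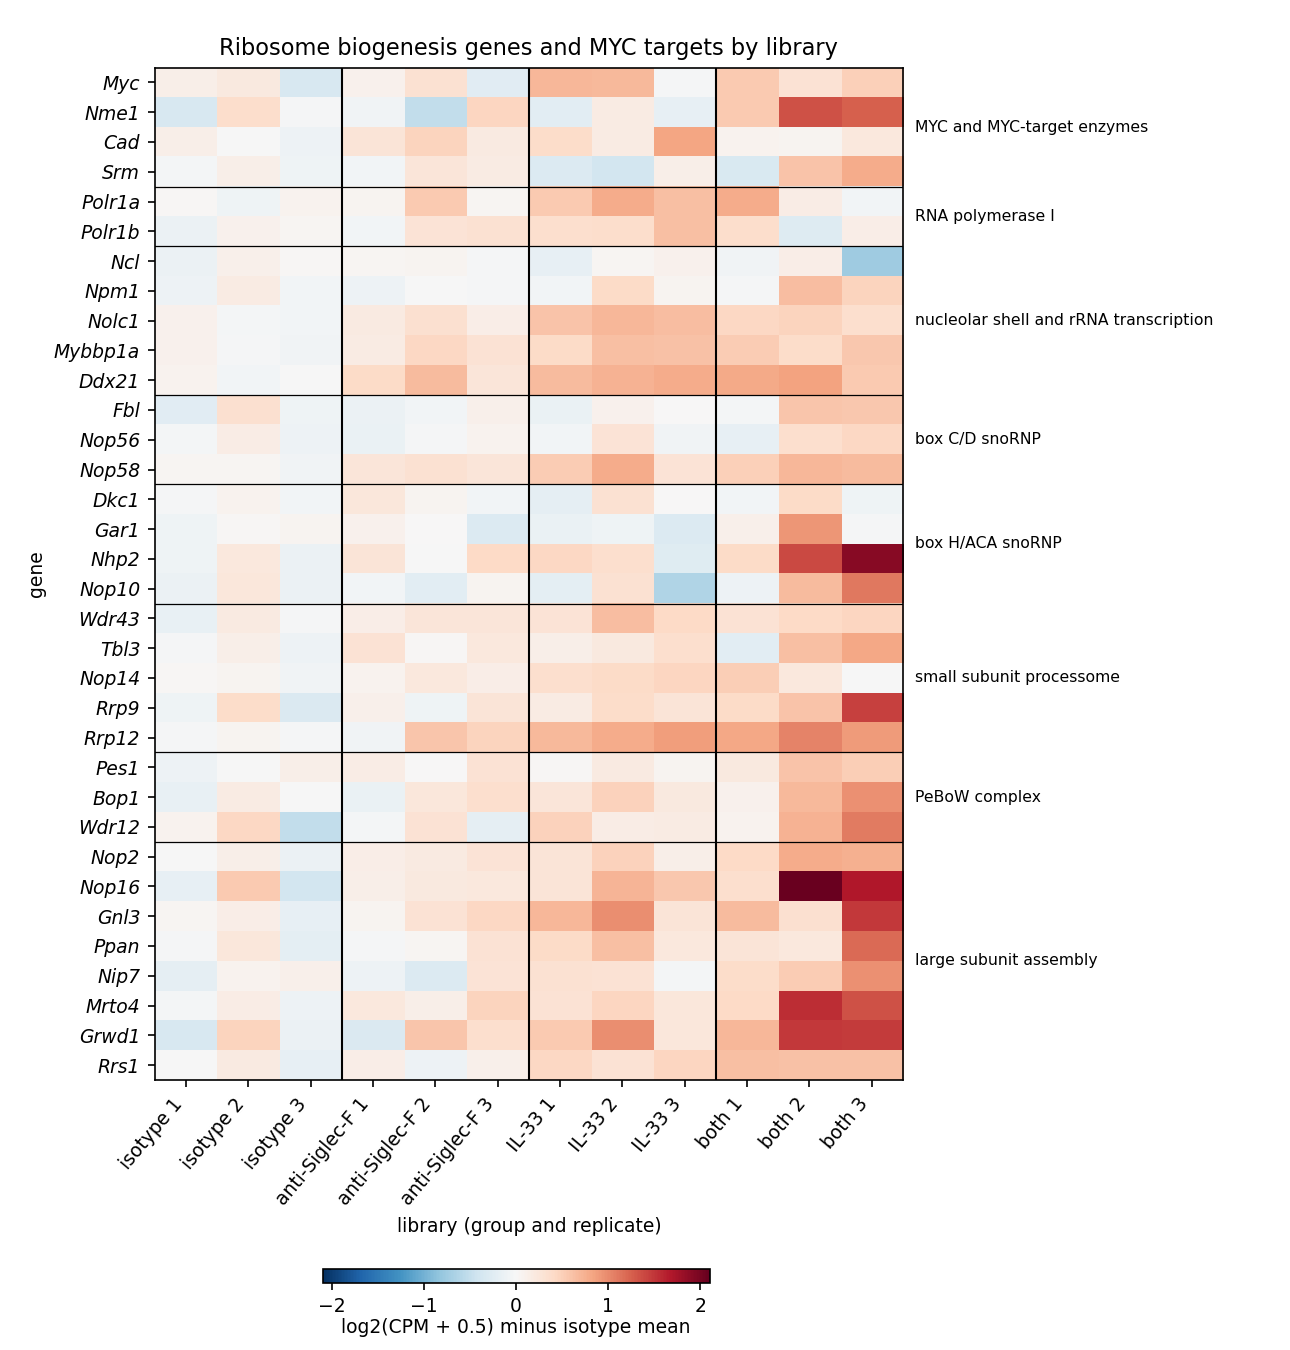
Difference from the isotype mean on the log2(CPM + 0.5) scale (colour) for the 34 tested members (vertical axis, grouped by role) in each of the 12 libraries (horizontal axis). Ddx21, Nolc1, Mybbp1a and Rrp12 are red in all 6 libraries with IL-33, as are uncalled members such as Wdr43, Gnl3 and Ppan. The darkest cells are Nop16 in both-stimuli library 2 and Nhp2 in both-stimuli library 3.

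Library by library, the median difference of the members from the isotype mean was 0.31, 0.39 and 0.23 in IL-33 libraries 1, 2 and 3. It was 0.38 in the first both-stimuli library, close to the IL-33 libraries, and 0.60 and 0.64 in libraries 2 and 3. These last libraries had 31 and 29 of the 34 members above every isotype library, against 22 in the first. Over all genes the same shares were 34.5% and 37.0%, against 29.2%. The first both-stimuli library was the lowest of its group for 20 members (58.8%) and for 31.7% of all genes.

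Myc itself had a low level, as did some other members: its isotype mean of 8.02 CPM lay between those of Grwd1 (6.75) and Nme1 (9.47). Isotype libraries 1, 2 and 3 had 8.67, 9.22 and 6.18 CPM of Myc, antibody libraries 8.50, 9.94 and 6.60, IL-33 libraries 13.1, 12.9 and 7.81, and both-stimuli libraries 11.8, 9.91 and 11.5. The IL-33 group overlapped isotype through its library 3, while every both-stimuli library lay above isotype. Neither difference passed the main edgeR test: the log2 fold changes of Myc were 0.49 with IL-33 (SE 0.256, adjusted p = 0.451) and 0.46 with both stimuli (SE 0.257, adjusted p = 0.268). With limma voom, an alternative method, Myc was 1 of 14 members called higher with IL-33, among 2089 of 14547 genes called in all. No other alternative or comparison called Myc.

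Nme1, a nucleoside diphosphate kinase, measured 7.24, 12.1 and 9.08 CPM with isotype, 8.79, 6.33 and 12.9 with antibody, 7.89, 10.5 and 8.16 with IL-33, and 13.8, 24.1 and 22.7 with both stimuli. Only the both-stimuli group lay wholly above isotype, and its libraries 2 and 3 were the highest of all 12. The log2 fold change of Nme1 was 1.10 with both stimuli (SE 0.297, adjusted p = 0.0342), 0.60 without those libraries (adjusted p = 0.452), and -0.10 with IL-33 (adjusted p = 0.953). Cad, the multifunctional enzyme that starts pyrimidine synthesis, took another course: 20.5, 18.6 and 17.5 CPM with isotype, 24.7, 21.3 and 33.7 with IL-33, and 19.8, 19.6 and 22.1 with both stimuli, with no call. Srm, spermidine synthase, reached 36.7 and 41.5 CPM in both-stimuli libraries 2 and 3, but had 19.1 CPM in library 1, which is under the isotype range of 22.6 to 26.1.

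RNA polymerase I was represented by its catalytic core subunits Polr1a and Polr1b. Polr1a measured 15.9, 14.5 and 16.4 CPM with isotype, 16.2, 23.0 and 16.1 with antibody, 23.0, 27.1 and 24.5 with IL-33, and 27.0, 17.4 and 15.0 with both stimuli. All 3 IL-33 libraries and the first both-stimuli library were above isotype, while the other both-stimuli libraries were at or near the isotype range. Polr1b was likewise highest in the first both-stimuli library, with 14.4 CPM there and 9.07 and 12.1 in libraries 2 and 3, against 10.0 to 11.7 with isotype. Neither subunit was called. For Polr1a the log2 fold change was 0.67 with IL-33 (SE 0.223, adjusted p = 0.161) and 0.34 with both stimuli (adjusted p = 0.353).

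Among the nucleolar proteins, Ddx21 (chr10:62580251-62602281, mm10, minus strand) rose in every comparison with isotype that included IL-33. Ddx21 measured 85.7, 78.6 and 80.9 CPM with isotype, 108, 129 and 97.8 with antibody, 129, 135 and 140 with IL-33, and 141, 147 and 119 with both stimuli. All 9 stimulated libraries lay above all isotype libraries. The log2 fold change of Ddx21 was 0.72 with IL-33 (SE 0.142, adjusted p = 0.0163) and 0.73 with both stimuli (SE 0.142, adjusted p = 0.00616). The second call held when any 1 library was left out and also without both-stimuli libraries 2 and 3 (log2 fold change 0.84, adjusted p = 0.0160), but the IL-33 call was lost in 4 of 6 fits with 1 library left out: without any isotype library, and without IL-33 library 1.

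Nolc1 (chr19:46075863-46085530, plus strand), a chaperone of small nucleolar ribonucleoproteins, measured 31.5, 28.5 and 28.4 CPM with isotype, 33.6, 37.2 and 32.4 with antibody, 44.7, 48.3 and 46.3 with IL-33, and 40.0, 41.0 and 37.9 with both stimuli. The IL-33 libraries were the 3 highest, and the both-stimuli libraries came next without overlap. Nolc1 rose with IL-33 by a log2 fold change of 0.65 (SE 0.131, adjusted p = 0.0181), and its 0.43 with both stimuli missed the threshold (adjusted p = 0.0540). Mybbp1a had 81.4, 75.5 and 72.5 CPM with isotype, 86.0, 103 and 94.3 with antibody, 101, 119 and 117 with IL-33, and 111, 100 and 113 with both stimuli. Its log2 fold changes were 0.55 with IL-33 (SE 0.133, adjusted p = 0.0468) and 0.50 with both stimuli (adjusted p = 0.0312). The first was lost with the replicate number as a block (adjusted p = 0.0656), and the second without both-stimuli libraries 2 and 3 (0.59, adjusted p = 0.0700).

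The abundant nucleolar shell proteins were not called. Ncl, nucleolin, was one of the highest members per length, with 31.6 CPM per kb in isotype cells, and Npm1, nucleophosmin, was the highest with 41.7, against 0.514 for Wdr12, the lowest tested member. Ncl measured 294, 344 and 327 CPM with isotype, 284, 331 and 343 with IL-33, and 304, 355 and 192 with both stimuli. The lowest of all 12 was both-stimuli library 3. Ncl's log2 fold change of -0.18 with both stimuli (adjusted p = 0.591) was the only negative one among the members. Npm1 measured 109, 173 and 154 CPM in the both-stimuli libraries against 102 to 125 with isotype, and was not called.

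**Figure D2:**
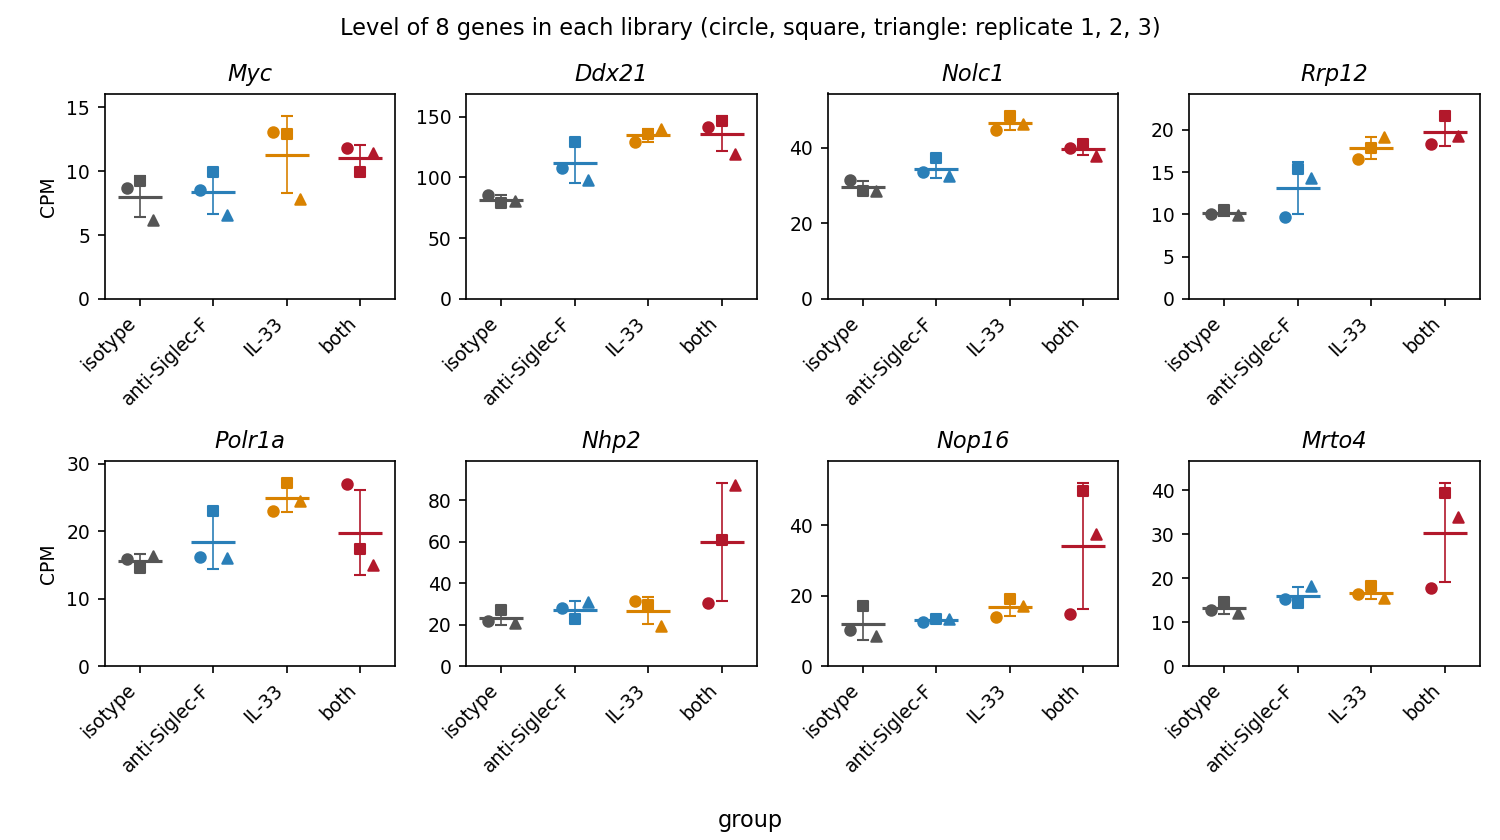
CPM (vertical axis) of 8 members in each library, by group (horizontal axis); circle, square and triangle are replicates 1, 2 and 3, horizontal bars are group means and error bars are the SD of 3 libraries. Ddx21, Nolc1 and Rrp12 lie above isotype in every library with IL-33, Polr1a among the both-stimuli libraries is high in library 1 (27.0 CPM) only, and Nhp2, Nop16 and Mrto4 are high in libraries 2 and 3.

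The box C/D ribonucleoprotein carries out rRNA methylation. Its methyltransferase Fbl and the scaffold Nop56 stayed uncalled: Fbl measured 73.7 to 110 CPM with isotype and 84.8, 131 and 129 with both stimuli, and Nop56 46.7 to 56.2 and 44.7, 64.3 and 68.5. The other scaffold, Nop58, behaved differently. Nop58 measured 24.1, 24.3 and 22.3 CPM with isotype, 28.3, 29.6 and 28.3 with antibody, 34.4, 40.7 and 28.7 with IL-33, and 33.3, 38.6 and 37.5 with both stimuli, so every stimulated library exceeded every isotype library. It rose with both stimuli (log2 fold change 0.63, SE 0.155, adjusted p = 0.0208; 0.55 and 0.150 without libraries 2 and 3) and was not called with IL-33 (0.55, adjusted p = 0.0852).

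Of the H/ACA ribonucleoprotein, which converts uridine to pseudouridine, only Nhp2 was called. Nhp2 (chr11:51619735-51623714, plus strand) measured 21.6, 26.8 and 21.0 CPM with isotype, 27.9, 22.8 and 30.8 with antibody, 31.4, 29.4 and 19.2 with IL-33, and 30.6, 61.0 and 87.5 with both stimuli. Both-stimuli libraries 2 and 3 stood far above the rest, and library 1 was within the IL-33 range. Its log2 fold change with both stimuli was 1.37 (SE 0.308, adjusted p = 0.0142), and 0.45 without those libraries (adjusted p = 0.437). Dkc1, the pseudouridine synthase itself, stayed between 11.0 and 17.0 CPM in all 12 libraries. Nop10 measured 17.2, 29.4 and 40.2 CPM in the both-stimuli libraries against 16.9 to 21.9 with isotype, and Gar1 had 15.0, 26.7 and 13.7 against 13.0 to 14.4; neither was called.

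Among small-subunit factors, Rrp12 (chr19:41862852-41896153, minus strand) measured 10.0, 10.5 and 9.94 CPM with isotype, 9.64, 15.4 and 14.3 with antibody, 16.6, 17.9 and 19.1 with IL-33, and 18.3, 21.6 and 19.2 with both stimuli. The isotype libraries were tightly grouped and all IL-33-containing libraries lay above them. The log2 fold change of Rrp12 was 0.81 with IL-33 (SE 0.194, adjusted p = 0.0458) and 0.96 with both stimuli (SE 0.194, adjusted p = 0.00835). The second call held whichever single library was left out, while the first was lost in all 6 such fits. Without both-stimuli libraries 2 and 3, its 0.90 had an adjusted p of 0.0691.

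Rrp9, which binds a processome small nucleolar RNA, measured 18.6, 26.0 and 15.9 CPM with isotype, 22.4, 25.9 and 24.1 with IL-33, and 26.3, 30.2 and 54.4 with both stimuli. Its log2 fold change of 0.88 with both stimuli was called (adjusted p = 0.0474), and library 3 was far above the others. The call was lost with the replicate block (adjusted p = 0.0617), and the value was 0.44 without libraries 2 and 3 (adjusted p = 0.418). The processome proteins Wdr43, Tbl3 and Nop14 were not called. Wdr43 lay above isotype in every IL-33 library and every both-stimuli library (30.9 to 40.2 CPM against 22.6 to 28.9). Nop14 had the same order as Polr1a, at 32.0, 26.0 and 22.0 CPM in the both-stimuli libraries against 28.7 to 30.5 with IL-33 and 21.1 to 23.1 with isotype.

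The PeBoW complex, which processes the large-subunit rRNA precursor, had no called member. Pes1 measured 65.2, 69.6 and 76.0 CPM with isotype and 81.2, 106 and 100 with both stimuli, which did not overlap (adjusted p = 0.0632). Bop1 measured 52.5, 78.8 and 96.1 CPM with both stimuli against 43.9 to 55.3 with isotype, and Wdr12 6.28, 10.2 and 13.1 against 3.99 to 8.18. In both, the first both-stimuli library was inside the isotype range.

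Of the 8 tested large-subunit assembly factors 5 were called with both stimuli, and their median log2 fold change was 0.81. None of the 5 was called without both-stimuli libraries 2 and 3. Nop16 (chr13:54584185-54590090, minus strand), a nucleolar MYC target, had the largest fitted change. It measured 10.1, 17.0 and 8.61 CPM with isotype, 12.5, 13.2 and 13.4 with antibody, 14.0, 19.0 and 17.1 with IL-33, and 14.7, 49.8 and 37.7 with both stimuli. Its both-stimuli group overlapped isotype through library 1. The log2 fold change of Nop16 was 1.51 (SE 0.361, adjusted p = 0.0182), and 0.35 without libraries 2 and 3 (adjusted p = 0.648).

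Mrto4 (chr4:139347435-139352576, minus strand), which helps form the ribosomal stalk, measured 12.8, 14.6 and 12.1 CPM with isotype, 15.4, 14.3 and 18.3 with antibody, 16.3, 18.1 and 15.6 with IL-33, and 17.8, 39.4 and 33.8 with both stimuli. Its increase with both stimuli (log2 fold change 1.20, SE 0.247, adjusted p = 0.00890) held whichever single library was left out. It was 0.49 without libraries 2 and 3 together (adjusted p = 0.278). Grwd1, a histone- and ribosome-associated chaperone, measured 5.08, 9.22 and 5.95 CPM with isotype, 9.85, 13.3 and 7.81 with IL-33, and 10.9, 19.3 and 19.0 with both stimuli (log2 fold change 1.28, adjusted p = 0.0261; 0.74 and 0.386 without those libraries).

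Rrs1, which helps bring the smallest rRNA into the large subunit, was even across its group. Rrs1 measured 16.9, 19.7 and 15.1 CPM with isotype, 18.9, 16.0 and 18.5 with antibody, 23.5, 21.2 and 23.6 with IL-33, and 26.9, 26.6 and 26.6 with both stimuli. All both-stimuli libraries exceeded all others (log2 fold change against isotype 0.63, SE 0.156, adjusted p = 0.0218; 0.69 and 0.0901 without libraries 2 and 3). Nop2, an rRNA cytosine methyltransferase, measured 33.6, 37.1 and 31.1 CPM with isotype and 45.5, 58.2 and 57.3 with both stimuli (log2 fold change 0.66, adjusted p = 0.0161; 0.48 and 0.191 without libraries 2 and 3). Gnl3, Ppan and Nip7, the remaining tested factors, had adjusted p-values of 0.0512, 0.121 and 0.0555. Gnl3, nucleostemin, reached 30.2 CPM in both-stimuli library 3 against 13.3 in library 2.

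**Figure D3:**
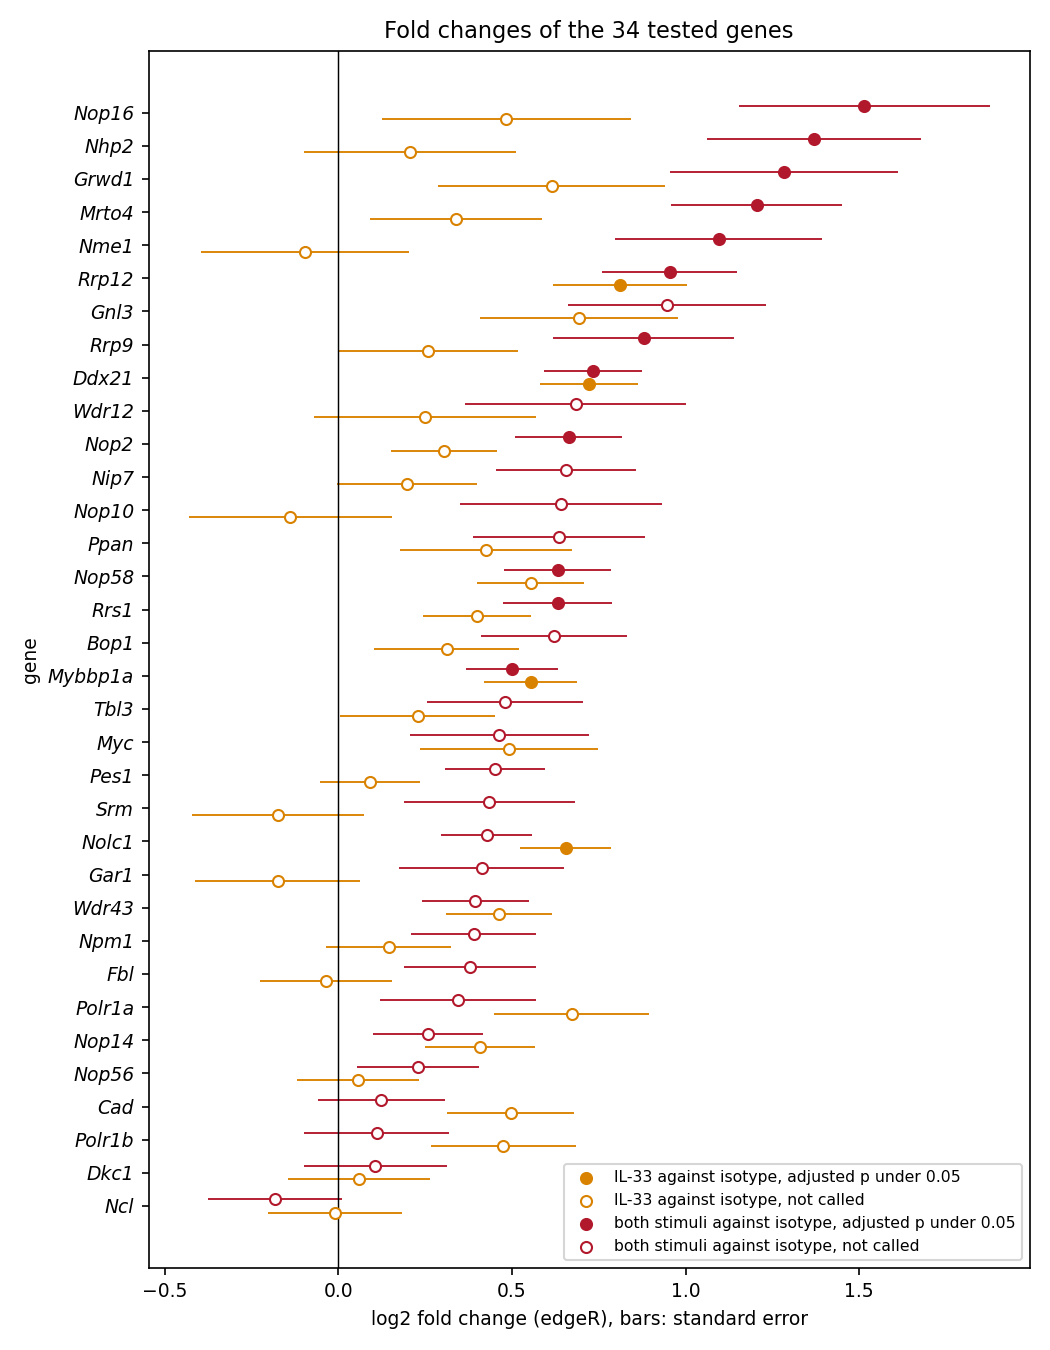
edgeR log2 fold change against isotype (horizontal axis; bars are standard errors) of the 34 tested members (vertical axis, ordered by the change with both stimuli), for IL-33 alone and for both stimuli; filled points were called. Nop16 leads with both stimuli at 1.51, Rrp12 leads with IL-33 at 0.81, and Ncl is lowest with both stimuli at -0.18.

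The calls rested on few libraries. None of the 4 IL-33 calls held in all 6 fits that left out 1 isotype or IL-33 library. In these fits 0 to 3 members were called, among 116 to 488 genes in all. Ddx21 was the only member called without IL-33 library 2. Leaving out both-stimuli libraries 2 and 3 cannot check the IL-33 calls, because neither is in the groups compared. Pairing same-numbered libraries in a fit of isotype and IL-33 only, 8 members were called. They were Ddx21, Nolc1, Mybbp1a and Rrp12 with Gnl3, Nop58, Polr1a and Wdr43. That fit called 1235 of 13597 genes in all, against 322 of 14547 in the main fit. Of the 12 calls with both stimuli, Ddx21, Rrp12 and Mrto4 held in all 6 fits. Without both-stimuli library 1, 21 members were called among 2916 genes in all, without library 2, 10 among 1273, and without library 3, 5 among 934. With all libraries, 12 members were called among 1437 genes.

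Antibody alone gave no called member, beside 0.00% of all genes. At an unadjusted p under 0.05, Ddx21 (log2 fold change 0.45) and Mybbp1a (0.30) were the only members, and 370 genes in all passed. DESeq2 and voom called no member either, and 12 and 10 genes in all. The median over the members was 0.15, and 7 members (Cad, Nolc1, Mybbp1a, Ddx21, Nop58, Nop14 and Nop2) had groups that did not overlap, beside 6.72% of all genes. Median differences in the antibody libraries were 0.08, 0.19 and 0.23.

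Adding antibody to IL-33 gave no called member, beside 0.00% of all genes. At an unadjusted p under 0.05 there were 12 members, all higher, and 2526 genes in all. DESeq2 called 3 members (Mrto4, Nhp2 and Nme1) among 470 genes, and voom called no gene. The median was 0.25, and 6 members were separately higher (Nme1, Gar1, Rrp9, Pes1, Nip7 and Rrs1), beside 7.01% of all genes. Nolc1 was separately lower. Nme1 (1.19, SE 0.298), Nhp2 (1.16, SE 0.306) and Nop16 (1.03, SE 0.355) had the largest log2 fold changes. The median was 0.030 without libraries 2 and 3, and 8 members were called without library 1, when 2116 of 15278 genes were called in all: Fbl, Mrto4, Nhp2, Nme1, Nop10, Nop16, Pes1 and Srm.

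Adding IL-33 to antibody raised 3 members, Nop16 (log2 fold change 1.38, adjusted p = 0.0456), Mrto4 (0.93, adjusted p = 0.0489) and Rrs1 (0.59, adjusted p = 0.0498), beside 2.70% of all genes called higher. The median over the members was 0.43, and 11 members had groups that did not overlap, beside 9.99%. Each of the 3 calls was lost in 5 of 6 fits that left out 1 library. No member was called without both-stimuli libraries 2 and 3, whereas 14 were called without library 1, when 2839 of 15278 genes were called in all. These comparisons share libraries with each other and with those against isotype.

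For the interaction, which asks whether the response to antibody differed according to the presence of IL-33, no member was called, beside 0.00% of all genes. At an unadjusted p under 0.05 there were 5 members and 1150 genes in all. Nme1 (1.21) and Nhp2 (0.93) had positive interaction terms, and Cad (-0.69), Nolc1 (-0.45) and Ddx21 (-0.44) negative ones, each with an adjusted p of 0.583. DESeq2 and voom called no member, and 3 and 0 genes in all.

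The differences among the both-stimuli libraries varied with gene length. Over the 34 members, the Spearman correlation of gene length with the difference from isotype was 0.09 in library 1, -0.48 in library 2 and -0.35 in library 3, and 0.40 for the IL-33 mean. Over all 14547 genes it was 0.09, -0.18, -0.14 and 0.13. These are descriptions across genes that share libraries and scaling. The 7 members under 2500 bases, among them Nhp2 and Nop16, had median differences of 0.35, 0.92 and 1.10 in both-stimuli libraries 1, 2 and 3. Not every short member followed this: Rrs1 had differences of 0.63, 0.62 and 0.62, and Gar1 0.11, 0.92 and -0.02. The 10 members from 5000 bases, among them Polr1a, Ncl and Ddx21, had 0.43, 0.36 and 0.55. With IL-33 alone the values were 0.18 for the short and 0.50 for the long members. This order is that of both-stimuli library 1 and is opposite to that of libraries 2 and 3. Isotype library 2, which had the highest ribosomal protein share outside both-stimuli libraries 2 and 3 (2.79%), had a correlation of -0.43 over the members. IL-33 library 2, with the next highest share (2.52%), had 0.12, and antibody library 3 (2.30%) had -0.02. The remaining libraries, with shares from 1.73% to 2.17%, had correlations from 0.09 to 0.46. Each isotype library was compared with a mean that includes it. The part of gene length and of ribosomal protein share in the results was not tested.

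**Figure D4:**
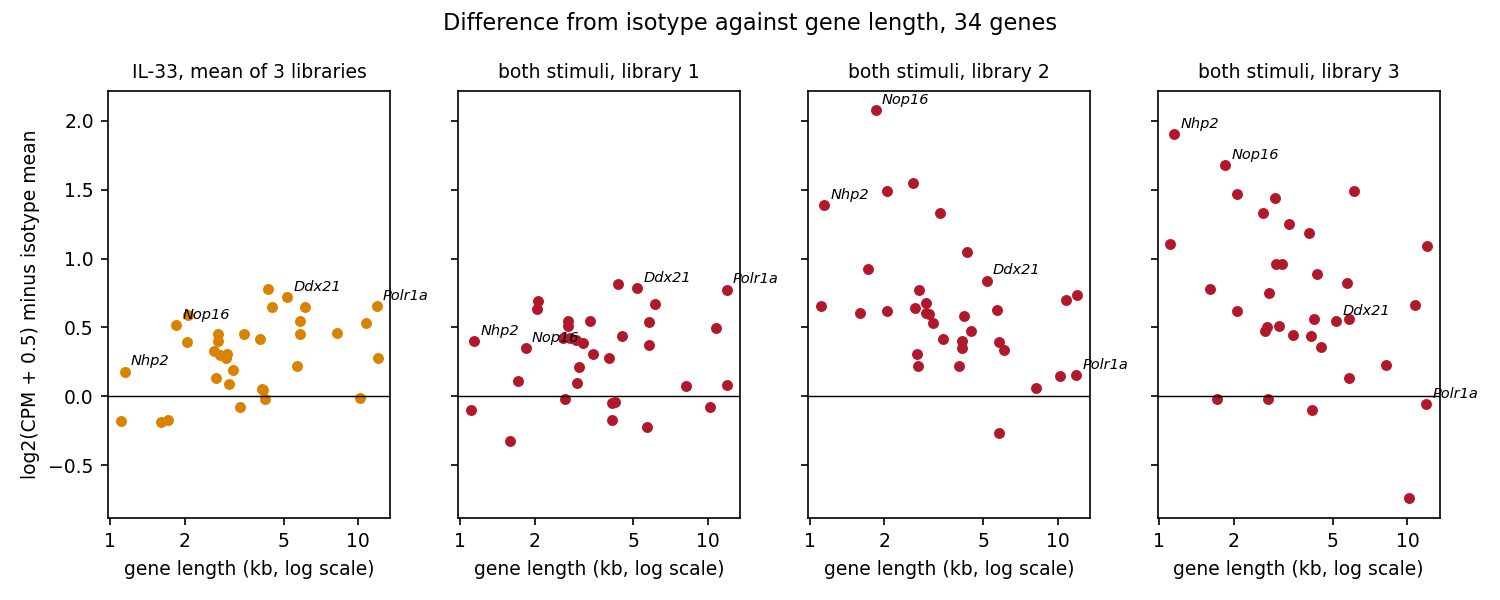
Difference from the isotype mean on the log2(CPM + 0.5) scale (vertical axis) against the deposited gene length in kb (horizontal axis, log scale), 1 point per tested member, for the IL-33 mean and for each both-stimuli library. Difference and length are negatively related in both-stimuli libraries 2 and 3 (rho -0.48 and -0.35) and not in library 1 (rho 0.09). Nhp2 and Nop16 are labelled examples.

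Exons of 8 members overlap those of another expressed gene on the opposite strand, and the strand setting of the counting is not known, so reads of such pairs cannot be told apart. The called members among them were Mybbp1a (with Spns2), Nhp2 (with Rmnd5b) and Rrp9 (with Parp3). Rmnd5b measured 54.2, 82.3 and 68.4 CPM in the both-stimuli libraries against 75.9 to 88.1 with isotype, and Parp3 66.5, 71.6 and 96.4 against 66.4 to 90.4. Spns2 was lower with IL-33 and with both stimuli (8.32 to 22.7 CPM) than with isotype (23.4 to 25.6), the opposite direction to Mybbp1a.

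Further assembly genes were listed by role. Of 110 in all, 4 were called higher with IL-33 and 22 with both stimuli, none lower, and none was called with antibody, where 3 had an unadjusted p under 0.05. Over all genes 1.46% were called higher with IL-33, and 5.47% higher and 4.41% lower with both stimuli. The median log2 fold changes of the 110 genes were 0.19 with IL-33 and 0.40 with both stimuli, against -0.01 and -0.05 over all genes. With both stimuli, 9 of 41 small-subunit, 9 of 42 large-subunit, 3 of 9 ribonucleoprotein and 1 of 18 polymerase I genes were called. Without both-stimuli libraries 2 and 3 these were 3, 2, 1 and 0.

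Some of these genes were even across the both-stimuli libraries and some were not. Gtpbp4, a nucleolar GTPase of large-subunit assembly, measured 43.5, 49.6 and 48.0 CPM with isotype, 66.3, 70.2 and 56.3 with IL-33, and 87.8, 87.8 and 94.5 with both stimuli (log2 fold change 0.94, adjusted p = 0.00110). Pwp1, a chromatin-associated regulator of rRNA genes, measured 40.5, 35.5 and 33.7 CPM with isotype, 102, 72.5 and 52.9 with IL-33, and 107, 63.4 and 98.6 with both stimuli (1.30, adjusted p = 0.00395). Both, like the processome gene Utp4 (0.95) and the cap methyltransferase Tgs1 (0.60), were also called without libraries 2 and 3. Pno1, a late small-subunit factor (1.34), Rrp15 (1.20) and Polr2h, a subunit shared by the RNA polymerases (1.22), were not. Rrp15 measured 7.52, 18.9 and 14.0 CPM in the both-stimuli libraries against 5.40 to 6.71 with isotype.

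Among 37 further MYC targets, 1 was called higher with IL-33 and 11 with both stimuli, while 1 was lower, beside the same shares of 1.46%, 5.47% and 4.41%. The single call with IL-33 is close to its background. Tfrc, the transferrin receptor, measured 20.8, 19.9 and 14.9 CPM with isotype, 37.2, 31.4 and 34.7 with IL-33, and 46.8, 37.0 and 49.3 with both stimuli (log2 fold change 1.26, adjusted p = 0.00110). Eif4e, the cap-binding initiation factor, measured 28.4, 36.8 and 32.0 CPM with isotype and 56.4, 84.8 and 78.3 with both stimuli (1.18, adjusted p = 0.00104). Tfrc and Eif4e were called also without libraries 2 and 3. Eif5a, a translation elongation factor, rose by a log2 fold change of 1.12 with both stimuli and was not called without them. The gene called lower was Cbx3, a heterochromatin protein, at -0.88 (adjusted p = 0.0131).

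Among MYC network factors the few calls were lower, not higher. Of 12 such factors 9 were tested, and none was called higher. With IL-33, 2 were called lower (Max and Mxi1), beside 0.749% of all genes. With both stimuli only Mxd4 was called lower, beside 4.41%. The median log2 fold change of the 9 was -0.28 with IL-33 and -0.36 with both stimuli, against -0.01 and -0.05 over all genes. Mxd4, which pairs with MAX and opposes MYC, fell with both stimuli by 1.21 on the log2 scale (SE 0.205, adjusted p = 0.00289), in every fit that left out 1 library. Mxd4 measured 154, 121 and 132 CPM with isotype, 114, 103 and 107 with antibody, 76.7, 65.1 and 120 with IL-33, and 67.6, 57.0 and 51.4 with both stimuli. It was not called without libraries 2 and 3 (adjusted p = 0.0929). With IL-33 alone, Max, the partner of MYC, fell by 0.70 on the log2 scale (adjusted p = 0.0335) and Mxi1, another antagonist, also fell by 0.70 (adjusted p = 0.0455); both were singled out after their values were seen. The Max call was lost in all 6 fits that left out 1 library, and the Mxi1 call in 5 of 6. Max measured 161, 180 and 193 CPM with isotype against 102, 117 and 110 with IL-33.

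Markers of other cell types were set beside these changes. The summed level of 12 monocyte and macrophage markers, none at 0 throughout, ran from 752 to 866 CPM with isotype, 844 to 1064 with antibody, 1181 to 1530 with IL-33, and 1368 to 1817 with both stimuli. Of 11 tested, 3 were called higher with IL-33, and 3 higher and 1 lower with both stimuli. Over all genes these shares were 1.46%, 5.47% and 4.41%. The markers did not move together. With IL-33, 6 had positive and 5 negative log2 fold changes, from -1.26 to 3.65. With both stimuli 8 were positive and 3 negative, from -1.13 to 3.92. The part of these markers in the results was not tested. In bulk samples, fewer cells of a type and less RNA per cell cannot be told apart. Basophil and mast cell markers summed to 145 to 189 CPM with isotype, 156 to 229 with IL-33 and 198 to 249 with both stimuli. Erythroid markers were low, at 5.87 to 17.5 CPM with isotype, 11.5 to 19.0 with IL-33, and 15.5, 24.2 and 30.0 in both-stimuli libraries 1, 2 and 3. None of either list was called against isotype, though 2 of 5 tested erythroid genes had an unadjusted p under 0.05 with both stimuli, both higher. Neutrophil markers (281 to 1468 CPM), T cell and ILC2 markers (27.3 to 108) and B and plasma cell markers (351 to 765) had overlapping ranges in all groups. None of these was called against isotype. The values of 108 and 765 CPM were both from IL-33 library 2. Isotype library 2 was next highest for both lists, with 53.8 and 683 CPM. Proliferation markers, 12 genes, summed to 162 to 284 CPM with isotype, 174 to 272 with IL-33 and 186 to 284 with both stimuli, and none was called or had an unadjusted p under 0.05 against isotype.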

How the data were processed

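Gene counts of 12 libraries were used as the authors deposited them (raw counts). Per the submitters' processing notes, the tools were fastp, FastQC 0.11.8, STAR 2.6.1d, featureCounts 1.5.0-p3 and DESeq2, with the mouse build mm10. Which annotation release and which strand setting were used is not given in the sources used here. The deposited table also lists 1 gene length per gene, in bases. A deposited table of normalized counts from the same libraries was not used.

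One model with 4 groups was fitted to all libraries with edgeR 4.0.16 in R 4.3.3: TMM scaling, filterByExpr by group, and the quasi-likelihood F test. P-values were adjusted by the Benjamini-Hochberg method over the 14547 genes tested in each comparison, and a gene was called at an adjusted p under 0.05. A standard error (SE) is the log2 fold change divided by the square root of F. CPM are counts per 1000000 of the library total times its TMM factor. Differences by library are on the scale log2(CPM + 0.5). Promoter windows came from RefSeq on GRCm38.p6. The analysis code was tested on simulated counts. The alternatives were another scaling, DESeq2 1.42.0, limma 3.58.1 (voom with quality weights), no filter, a stricter filter (at least 1 CPM), only the groups compared, a replicate block, and libraries left out.

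The members, lists, tests and rules for naming were chosen with earlier results of these data known. All members could be named. Of each further list, up to 4 called genes with the largest change with both stimuli were named, and Siglecf, Ccr3, Epx, Prg2 and Il5ra as eosinophil genes.

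Titles number the replicates from 1 to 3 in every group. The correlation of deviations from the group mean between same-numbered isotype and IL-33 libraries was 0.27, 0.29 and 0.19. These exceed the limit of 0.1 set for pairing. In every other comparison at least 1 of the 3 correlations was lower than that. The main fit paired no libraries in any comparison. The 4 IL-33 calls and the IL-33 p-values given with them are therefore unpaired. The paired fit of isotype and IL-33 was run as an alternative, with 8 members called among 1235 genes in all.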

Additional observations from a re-analysis of the deposited data

How the results depend on the processing

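No called member changed sign under any alternative run. Members called with IL-33 against isotype (4) became 14 with voom, 1 without an expression filter, and 8 with the replicate block and only those groups. The replicate block over all libraries gave 3 members with IL-33 and 12 with both stimuli, without Rrp9 and with Bop1. With both stimuli against isotype (12) there were 18 members with DESeq2, 16 with median-ratio scaling, 16 with the strict filter, 5 with only the groups compared, 7 with the replicate block as well, and 1 without both-stimuli libraries 2 and 3. Both stimuli against IL-33 (0) gave 3 with DESeq2 and 4 without a filter. Both stimuli against antibody (3) gave 5 with median-ratio scaling, 10 with DESeq2, 6 without a filter, 5 with the strict filter, and 0 with only the groups compared, with the replicate block as well, or without libraries 2 and 3. Without libraries 2 and 3 the median log2 fold change was 0.030 against IL-33 and 0.23 against antibody.

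Leaving out 1 library at a time, the members called ranged from 0 to 3 with IL-33 and 3 to 21 with both stimuli. They ranged from 0 to 8 for both stimuli against IL-33, and 0 to 14 against antibody. The genes called in all ranged from 116 to 488, 515 to 2916, 0 to 2116 and 124 to 2839. The medians of the members ranged from 0.32 to 0.48, 0.44 to 0.68, 0.14 to 0.38, and 0.31 to 0.56. For antibody against isotype they ranged from 0.12 to 0.24. The cause of these shifts was not tested. A group left with 1 library was assumed to vary like the others.

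Over all genes, the 322 called with IL-33 became 806 with DESeq2, 2089 with voom, 683 without a filter, 1235 with the block and only those groups, and 688 without libraries 2 and 3. The 1437 called with both stimuli became 2404 with DESeq2, 738 with only the groups compared, 916 with the block as well, 651 without libraries 2 and 3, and 2916 without library 1. The 643 called for both stimuli against antibody became 1627 with DESeq2, 424 with voom, 1600 without a filter, 242 with only those groups, 350 with the block as well, and 220 without libraries 2 and 3. Both stimuli against IL-33 gave 786 without a filter and 2116 without library 1. Median-ratio scaling gave 1511 for both stimuli against isotype and 648 against antibody. The strict filter gave 1709 and 761 of the 12338 genes that passed it. The replicate block over all libraries gave 364 with IL-33 and 1459 with both stimuli. With both stimuli against isotype the median of all genes, -0.05, was -0.12 with voom and 0.26 without a filter.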
